A study of Drosophila melanogaster with 9 samples.

Results

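The chitinase genes of Drosophila are described here in whole adult heads of 2 kdm5 mutants and of wild-type flies. The members are the 10 genes that the deposited tables name Cht2, Cht3, Cht4, Cht5, Cht6, Cht7, Cht8, Cht9, Cht11 and Cht12, out of 17478 genes. They were picked by name, and the family was chosen on the rise of Cht3 in both mutants. The values of the members against wild type are therefore a description of the same comparisons that chose them, and nothing is read from their number.

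KDM5 is a histone demethylase with a Jumonji C (JmjC) catalytic domain, and human relatives of it are mutated in intellectual disability. Messenger RNA was sequenced from 9 libraries: 3 from heads of A512P mutant flies, whose KDM5 carries a single amino acid replacement, 3 from heads of JmjC* mutants, whose KDM5 has no demethylase activity, and 3 from heads of wild-type flies (WT). All flies were 3 to 5 days old, untreated and raised on standard medium. The sources used here give neither the sex of the flies nor the way each allele was introduced. Whether the libraries of a group stem from independently collected heads is not stated either, so p-values reflect library-to-library spread, and this may be technical.

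Chitin is a polymer of N-acetylglucosamine that gives insect cuticle, the lining of the tracheae and the peritrophic matrix of the gut much of their strength. Chitinases are secreted or membrane-bound glycosyl hydrolases that cut this polymer. They dissolve old cuticle at each moult, trim and shape new cuticle, and in the gut act on chitin of the peritrophic matrix or of food. The adult head carries cuticle on its surface and in the foregut, and it is filled with tracheae and air sacs.

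The deposited values are a mean normalized count per gene over the libraries, and for each mutant a log2 fold change over WT with its standard error (SE) and an adjusted p-value. Values per library were not used here, so the spread of a level over samples is unknown, and so is the depth of each library. A gene is called tested where the authors gave an adjusted p, and called changed where that p is under 0.05. The authors' fold changes are shrunken towards 0: no SE exceeds 0.231, however low the count. In bulk RNA from whole heads, fewer cells of a type and less RNA per cell cannot be told apart.

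Head levels of the 10 genes covered a wide range. Per kilobase of exon, Cht11 had the highest mean normalized count of the authors' deposited table, 172, followed by Cht2 at 161. Cht7 stood at 88.2 per kilobase, Cht5 at 73.4, Cht6 at 53.3 and Cht3 at 26.0 on the same scale. Cht9 (6.86 per kilobase) and Cht8 (5.08) were lower again, Cht4 was close to 0 at 0.457, and Cht12 is listed at 0. With no values per library, it is not known which neighbours in this order differ beyond their spread. These means pool WT and both mutants, so the rises of Cht3, Cht2, Cht6 and Cht7 described below add to their levels here. For Cht3 the rise was 5.10-fold in A512P and 4.96-fold in JmjC*. The order in WT alone was not computed.

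**Figure D1:**
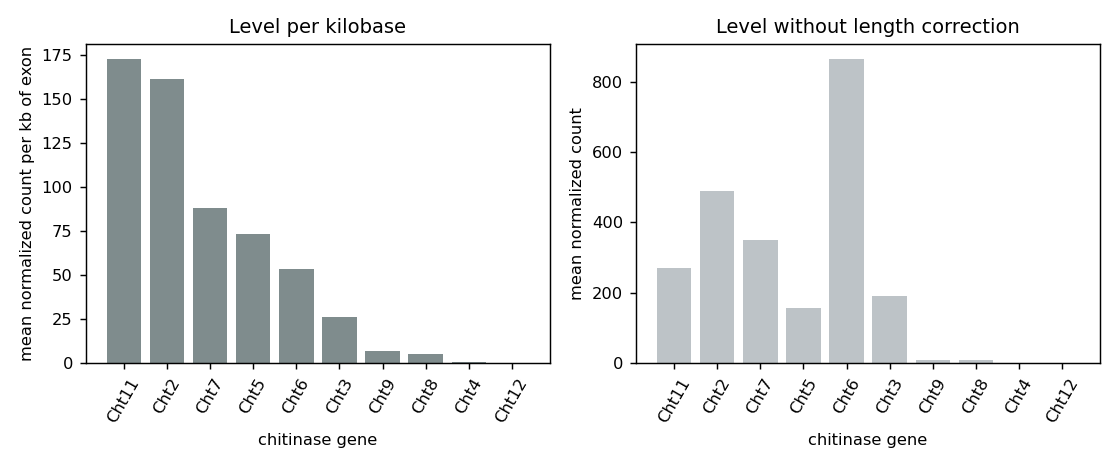
Level of each chitinase gene over all 9 libraries. The left panel gives the mean normalized count per kilobase of exon and the right panel the mean normalized count itself, with no error bars because values per library were not used. Cht6, with 16205 bases of exon, is the highest on the right and only the fifth on the left. Both panels pool WT and mutant libraries, so rises in the mutants are part of the levels.

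The 4 genes lowest in that order lie together. Cht8, Cht12, Cht4 and Cht9 fill 7641 bases of chromosome 2R (21061646 to 21069286 in BDGP6.54), and the ends of Cht8 and Cht12, on opposite strands, overlap by 35 bases. In insects, members of this group are mostly known from the gut. The other genes stand alone: Cht2 (FBgn0022702; 3L, 1752328 to 1755934) and Cht7 (FBgn0035398; 3L, 3090985 to 3106958), Cht3 (FBgn0250907; 2L, 22999574 to 23025915), Cht5 (FBgn0038180; 3R, 13767549 to 13770732), Cht11 (FBgn0029913; X, 6847877 to 6849517) and Cht6 (FBgn0263132; X, 10016845 to 10050803). All 10 are annotated as protein coding. The summed exon length of each in the tables equals that in this annotation.

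Cht3, Cht2, Cht6 and Cht7 were higher in both mutants, while Cht5, Cht11 and Cht8 were not called in either. Of the 10 genes, 7 were tested in each comparison. In A512P, 4 of the 7 were called higher and 0 lower, where 10.2% of all 11608 tested genes were called higher and 21.0% in either direction. In JmjC*, 4 of the 7 were called higher and 0 lower, beside 14.2% of 11898 genes called higher and 28.8% in either direction. The median log2 fold change over the 7 tested members was 0.44 in A512P and 0.52 in JmjC*, against 0.0027 and 0.011 over all tested genes. The members' median includes Cht3, on whose rise the family was chosen, and it was not computed without Cht3. Both comparisons use the same WT libraries, so their likeness is not a replication.

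Cht3 has the longest exon sequence of the family after Cht6, 7373 bases. Current annotation names it Cht10, a long secreted chitinase with several catalytic and chitin-binding domains, of a class known from moulting in other insects. Its mean normalized count was 192 in the authors' deposited table. It was 5.10-fold higher in A512P, at log2 2.35 ± 0.18 (SE) by the authors' deposited table. In JmjC* it was 4.96-fold higher, at log2 2.31 ± 0.18 in the second of the authors' deposited tables. From these SEs, the 95% interval of the shrunken fold change ran between 4.01 and 6.47 in A512P and between 3.90 and 6.29 in JmjC*. The size of the rise before shrinkage is not known here. Ranked by log2 fold change, Cht3 was number 11 of 11608 tested genes in A512P and number 13 of 11898 in JmjC*. Its interval lay above those of the other 6 tested members in both mutants.

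**Figure D2:**
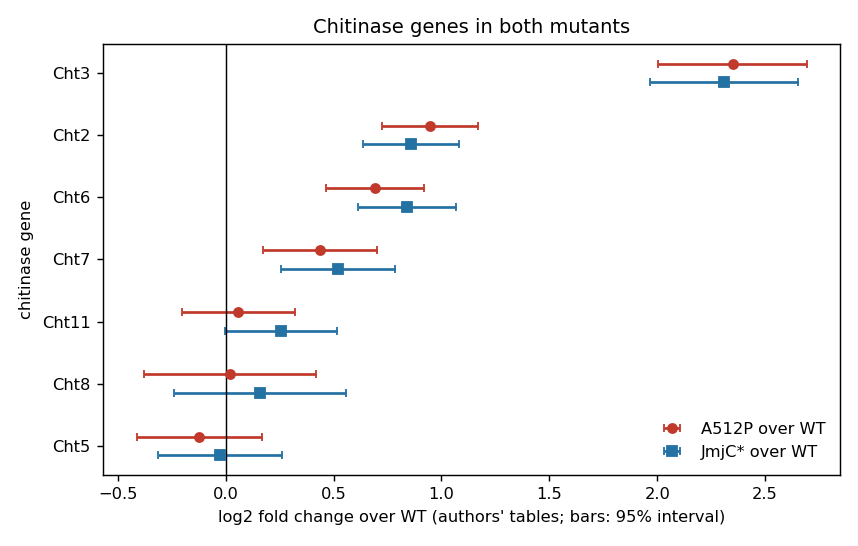
Log2 fold change over WT of the 7 tested chitinase genes, with A512P as circles and JmjC* as squares. Bars are 95% intervals from the authors' SE. Cht3 stands apart at 2.35 and 2.31, and the intervals of Cht5, Cht11 and Cht8 include 0.

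Cht2, a secreted chitinase needed for an ordered cuticle in larvae, had a mean normalized count of 490. The authors' deposited table gave log2 0.95 ± 0.11 in A512P, a 1.93-fold rise (adjusted p = 1.05e-14). In JmjC* the log2 fold change was 0.86 ± 0.11 in the authors' deposited table, a 1.81-fold rise (adjusted p = 2.73e-12). Exons of Cht2 share 63 bases, 2.07% of its exon length, with CG13921 on the opposite strand, and the sources used here do not state whether reads were counted by strand. CG13921 was lower in A512P, at log2 -0.39 (adjusted p = 0.00610), and at -0.15 in JmjC* (adjusted p = 0.359), in the authors' deposited tables.

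Cht6 has the most exon sequence of the family and 7 annotated transcripts. Its mean normalized count of 864 is the highest of the 10 without correction for length. In A512P it rose by 0.69 ± 0.12 in log2 units, or 1.62-fold, by the authors' deposited table (adjusted p = 1.05e-07). For JmjC* the rise was 0.84 ± 0.12 in log2 units, or 1.79-fold, in the authors' deposited table (adjusted p = 1.91e-11). An antisense RNA, CR45185, covers 521 of its exon bases (3.22%). That RNA had a mean normalized count of 98.6 and was not called in either mutant, with log2 fold changes of 0.27 and 0.22 in the authors' deposited tables.

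Cht7, a membrane-anchored chitinase with a pair of catalytic domains in other insects, showed the smallest of the called rises. Its mean normalized count was 348. The authors' deposited table put it at log2 0.44 ± 0.13 in A512P, 1.35-fold higher (adjusted p = 0.00876). In JmjC* it stood at log2 0.52 ± 0.13, 1.43-fold higher, in the authors' deposited table (adjusted p = 8.86e-04). Both rises lie below 1.5-fold as shrunken values, and their size before shrinkage is not known here. The gene spans 15974 bases, of which 24.7% are exon, and 6 tRNA genes lie within its span but touch none of its exons.

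Cht5, whose counterpart is a moulting chitinase in other insects, had a mean normalized count of 156 over all libraries and was not called. The mean of Cht3, 192, includes its rise in the mutants, so the levels of Cht5 and Cht3 in WT need not be alike. By the authors' deposited tables its log2 value was -0.12 ± 0.15 in A512P (adjusted p = 0.625) and -0.026 ± 0.15 in JmjC* (adjusted p = 0.921). The upper ends of the 95% intervals of its fold change were 1.12 in A512P and 1.20 in JmjC*. Among these shrunken values, a change on the scale of that of Cht2 or Cht3 is thus outside the range that the SE of Cht5 allows.

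Cht11, the chitinase gene with the highest level per kilobase, was at log2 0.058 ± 0.13 in A512P (adjusted p = 0.816) in the authors' deposited table. In JmjC* its value was 0.26 ± 0.13 (adjusted p = 0.139), with an interval of the fold change from 0.997 to 1.43. Cht8, at a mean normalized count of 7.36, was at log2 0.021 ± 0.20 in A512P (adjusted p = 0.963) and 0.16 ± 0.20 in JmjC* (adjusted p = 0.604) in the authors' deposited tables. At that count the shrinkage of the fold change is strong, and the 95% interval from the authors' SE reaches 1.34-fold in A512P and 1.47-fold in JmjC*.

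**Figure D3:**
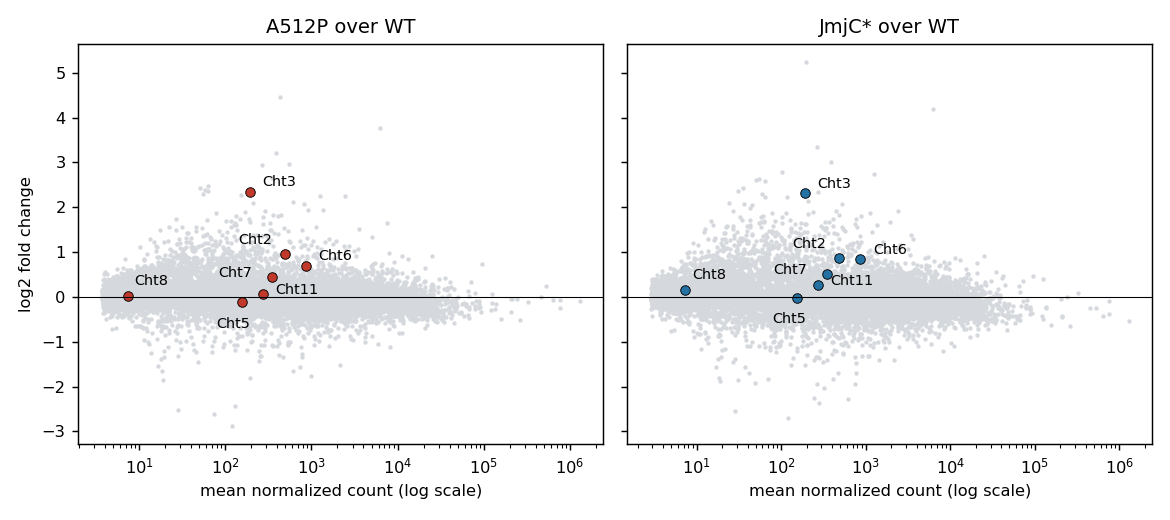
Mean normalized count (log axis) against log2 fold change over WT for all tested genes in grey, with the 7 tested chitinase genes marked, A512P on the left and JmjC* on the right. Cht3 lies at the upper edge of the cloud in both panels, and Cht5, at a like mean over all libraries, lies near 0. The mean of Cht3 includes its rise in the mutants.

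The remaining members gave no test. Cht9 had a mean normalized count of 7.97 and log2 values of -0.045 ± 0.15 in A512P and 0.33 ± 0.15 in JmjC* in the authors' deposited tables, but no p-value in either. In each table, 82 genes have a score without a p-value. DESeq2 leaves the p-value blank where the count of a gene in some library is extreme, and which library this was is not known here. An antisense RNA, CR44703, covers 76.9% of the exon length of Cht9 and is listed at 0. Cht4, at a mean normalized count of 0.673, had a p-value but no adjusted p, and Cht12 had no fold change.

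No chitinase gene was called different between the mutants. The difference of the log2 fold changes (A512P minus JmjC*) was tested for all 11608 genes tested in both tables with a two-sided normal test and Benjamini-Hochberg adjustment. The SE used is an upper bound, since both comparisons share the WT libraries. By this test 0 of 7 members were called, and 0 of 7 had an unadjusted p under 0.05, beside 0.879% of all genes called. For Cht3 the difference was 0.040 ± 0.25 (SE), with a 95% interval from -0.45 to 0.53. Cht11 had the widest gap of the tested members, -0.20 ± 0.19, with an interval from -0.57 to 0.17. Cht6 differed by -0.15 ± 0.16 and Cht2 by 0.087 ± 0.16. The adjusted p of all 7 was 0.9997. With a correlation of 0.5 between the comparisons, as shared controls give, 0 of 7 were called, and the smallest adjusted p was 0.617, for Cht11. These intervals do not show that the alleles act alike on the family: for Cht8 the interval ran from -0.70 to 0.43.

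**Figure D4:**
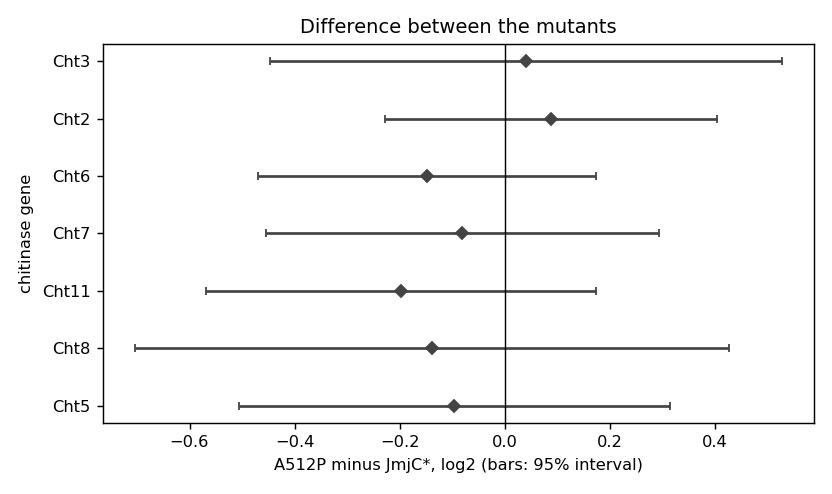
Difference of the log2 fold changes, A512P minus JmjC*, for the 7 tested chitinase genes, with 95% intervals. All 7 intervals include 0, and the widest is that of Cht8, from -0.70 to 0.43.

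The other genes that make, modify, bind or break down chitin were read from lists of 44 genes in 5 groups. In A512P, 14 of 36 tested genes were called higher and 2 lower, and in JmjC* 14 of 38 were called higher and 2 lower, by the authors' adjusted p. Over all tested genes, the shares called higher were 10.2% in A512P and 14.2% in JmjC*, and those called lower were 10.8% and 14.6%. The same shares belong beside the counts of each list below. Each list is small, so its counts are a description only. The median log2 fold change over the tested genes of the lists was 0.29 in both mutants. Between the mutants, 0 of the 36 genes tested in both tables were called by the normal test, and 1 of the 36 had an unadjusted p under 0.05. That gene was obst-B, which encodes a chitin-binding protein, with a difference of -0.63 ± 0.25.

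Among 9 genes of amino sugar and chitin synthesis, 2 rose and 1 fell in A512P, and 3 rose and 1 fell in JmjC*. The chitin synthase gene kkv, which builds the polymer in epidermis and tracheae, rose 2.82-fold in A512P (log2 1.495 ± 0.16, adjusted p = 6.03e-19) and 2.81-fold in JmjC* (log2 1.49 ± 0.16, adjusted p = 4.26e-19) in the authors' deposited tables. The gut chitin synthase gene, CS-2, had a mean normalized count of 3.88 and was not called. Gfat1, whose enzyme opens the pathway to the chitin precursor, was 1.48-fold higher in A512P and 1.37-fold higher in JmjC* by the authors' deposited tables. The gene exp, required for chitin deposition with kkv, was at log2 0.32 in A512P (adjusted p = 0.0701) and rose by 0.45 in JmjC* (adjusted p = 0.00476), again from the authors' deposited tables. CG1969, currently named Gnpnat, encodes the acetyltransferase of the same precursor pathway and went the other way. It was 1.61-fold lower in A512P (log2 -0.68 ± 0.15) and 2.10-fold lower in JmjC* (log2 -1.07 ± 0.15) by the authors' deposited tables.

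Of the 6 chitin deacetylase genes, which remove acetyl groups from the polymer, 4 rose in A512P and 5 in JmjC*, and 0 fell in either. Values for serp, a secreted deacetylase that limits tracheal tube length in embryos, were log2 1.23 ± 0.10 in A512P (2.35-fold) and 1.15 ± 0.10 in JmjC* (2.21-fold) in the authors' deposited tables. Its partner verm was 1.66-fold and 1.69-fold higher, and Cda5 was 1.61-fold and 1.75-fold higher, in A512P and JmjC* by the authors' deposited tables. Cda4 was 1.45-fold and 1.36-fold higher in the same tables. ChLD3 was at log2 0.56 in A512P (adjusted p = 0.0615) and rose by 0.83 in JmjC* (adjusted p = 0.00187) in the authors' deposited tables.

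Of 19 genes for proteins that bind or order chitin in the matrix, 6 of 11 tested rose in A512P and 3 of 13 in JmjC*, with 0 falls. In this group obst-B had the largest value in JmjC*, log2 1.27 ± 0.17, beside 0.63 ± 0.18 in A512P, by the authors' deposited tables. Gasp, a chitin-binding protein of tracheae, was 1.58-fold higher in A512P and 1.57-fold higher in JmjC* in the authors' deposited tables. Values for knk, whose protein shields new chitin from chitinases, were log2 0.62 ± 0.15 and 0.44 ± 0.15 in A512P and JmjC* in the authors' deposited tables. Peritrophin-A (log2 0.66), obst-A (0.46) and the mucin-related gene Mur89F (0.59) were called in A512P and were at 0.42, 0.35 and 0.46 in JmjC*, not called there, in the authors' deposited tables. The call of Mur89F ended when the fold changes were centred (adjusted p = 0.0509) or low counts were kept in (adjusted p = 0.0645).

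Chitinase-like growth factors, the Idgf proteins, share the structure of chitinases but lack enzyme activity. CG5210 and Idgf4 had the highest levels of all the lists, with mean normalized counts of 19457 and 16591 per kilobase of exon. The group also holds CG8460, which is related to chitinases but is not an Idgf gene. CG8460 was at log2 -0.098 in A512P and -0.36 in JmjC*, not called in either. Of the 7 genes in this group 2 rose in A512P and 3 in JmjC*, with 0 falls. Idgf3 rose 1.26-fold in A512P and 1.37-fold in JmjC* by the authors' deposited tables. Idgf4 was called in A512P (log2 0.39, adjusted p = 0.0373) and stood just outside the threshold in JmjC* (log2 0.36, adjusted p = 0.0510) in the authors' deposited tables. Adjusted over genes with a mean normalized count of at least 50, Idgf4 passed in JmjC* too (adjusted p = 0.0451). CG5210 (now named Idgf6) and Idgf5 had log2 values of 0.42 and 0.39 in A512P, not called, and rose by 0.56 and 0.52 in JmjC*, in the authors' deposited tables.

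N-acetylglucosaminidases split the short fragments that chitinases release. Of 3 such genes 1 fell in each mutant and 0 rose. Hexo1 was 1.94-fold lower in A512P (log2 -0.96 ± 0.11, adjusted p = 8.86e-16) and 1.66-fold lower in JmjC* (log2 -0.73 ± 0.11, adjusted p = 1.25e-09) by the authors' deposited tables.

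**Figure D5:**
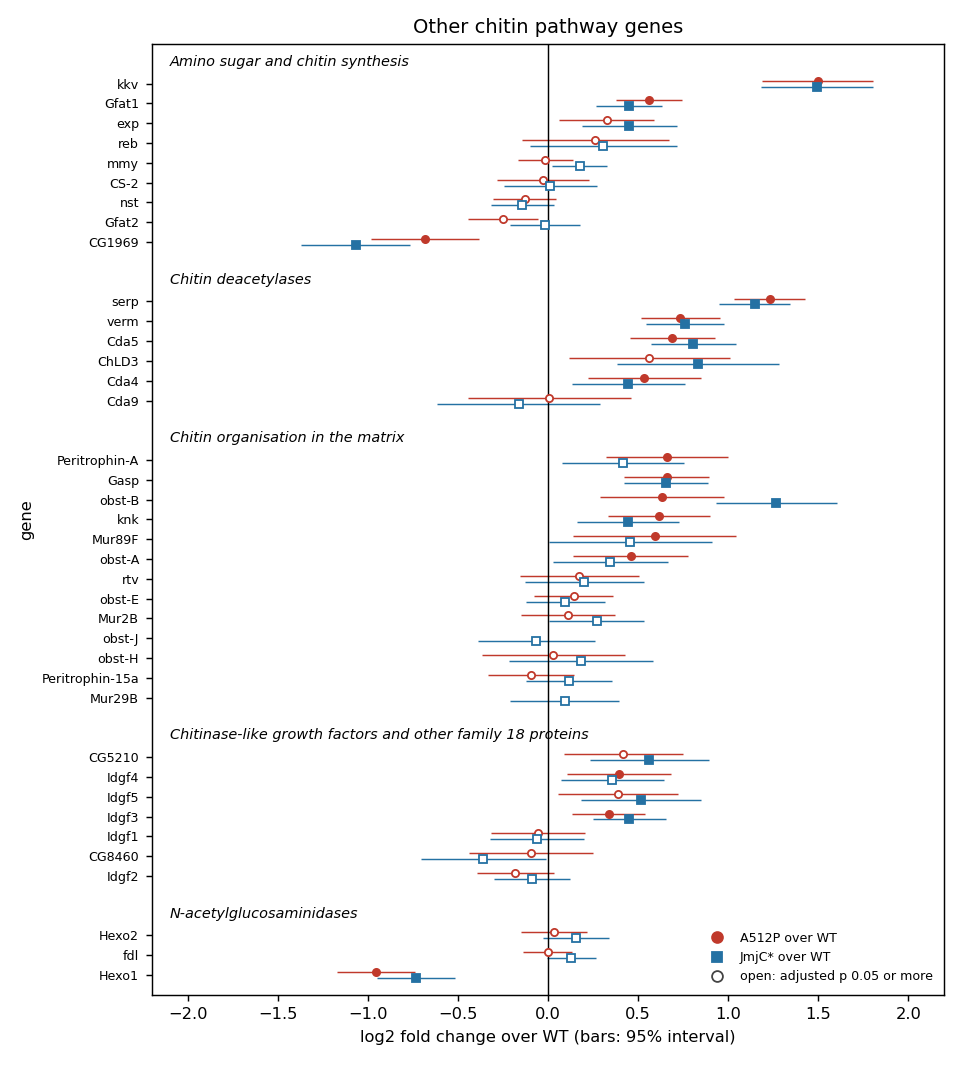
Log2 fold change over WT of the tested genes of 5 chitin pathway lists, with A512P as circles, JmjC* as squares and 95% intervals as bars. Filled symbols have an adjusted p under 0.05; kkv and the deacetylase genes serp, verm, Cda5 and Cda4 lie to the right in both mutants, Cda9 lies near 0, and CG1969 and Hexo1 lie to the left.

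Markers of head tissues were abundant, with mean normalized counts of 756320 for the rhodopsin gene ninaE and 7366 for the neuronal gene elav. Several of them were lower in the mutants. Across all tested genes 10.2% were called higher and 10.8% lower in A512P, and 14.2% and 14.6% in JmjC*. Of 5 photoreceptor markers 4 fell in A512P and 2 in JmjC*, with 0 rises. Their largest falls were log2 -0.34 in A512P (Arr1) and -0.37 in JmjC* (trp). Of 5 neuronal markers 1 fell in A512P and 2 in JmjC*, with 0 rises. Their largest falls were log2 -0.27 in A512P (nSyb) and -0.36 in JmjC* (Syx1A). Of 4 glial markers 2 fell in A512P, and 3 fell and 1 rose in JmjC*. Of 6 tracheal markers 3 rose in A512P and 4 in JmjC*, but serp, verm and Gasp are also on the chitin lists. Of the other tracheal genes, trh and pio were not called in either mutant (log2 0.078 and 0.079 in A512P, 0.0047 and 0.0064 in JmjC*, in the authors' deposited tables), and btl was at 0.22 in A512P and rose by 0.50 in JmjC*. Of 6 tested cuticle markers 3 rose and 0 fell in A512P, and 2 rose and 1 fell in JmjC*. Among them Cpr76Bd was 4.79-fold higher in A512P and 6.70-fold higher in JmjC* by the authors' deposited tables. Cpr65Au was 4.77-fold and 3.75-fold higher, and Cpr47Ef was called in A512P only (log2 0.84). The cuticle gene that fell in JmjC* was resilin (log2 -0.71, authors' adjusted p = 0.00640), at -0.42 in A512P, not called. Lcp65Ac and Acp65Aa were not called in either mutant. Of 10 tested midgut markers 3 rose and 1 fell in A512P and 2 rose in JmjC*. The amylase genes Amy-d and Amy-p were 2.94-fold and 2.82-fold higher in A512P, and 3.65-fold and 3.36-fold higher in JmjC*, by the authors' deposited tables. Npc2f rose (log2 0.73) and Vha100-4 fell (log2 -0.79) in A512P in the authors' deposited table, and the 5 tested trypsin and Jonah protease genes of that list were not called in either mutant. Blood cell markers gave 3 rises of 6 in each mutant, and fat body markers 0 calls of 5 in A512P and 2 falls in JmjC*. Of 6 ovary and embryo markers only 2 were tested in A512P, with 0 calls, and 3 in JmjC*, where 1, vas, rose. The part of cuticle, tracheal, blood cell or other tissue amounts in the values of the chitinase genes was not tested.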

How the data were processed

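Per the labels' protocols, a stranded mRNA kit was used on 500 ng of RNA, with amplification over 8 cycles and paired reads of 50 bases. The submitters' processing notes name STAR and DESeq2; genome build, annotation and strand setting are not stated there or in the labels. Both deposited tables hold the authors' own comparison of 1 mutant with WT. Per the file headers, the signal is a mean normalized count, identical in both tables for all 17478 genes, beside a log2 fold change with its SE, a score and p-values. The deposited score equalled the log2 fold change over its SE, and the deposited p-value followed from that score by the normal distribution, two-sided. An adjusted p was given for 11608 genes (A512P) and 11898 genes (JmjC*), down to a mean normalized count of 3.75 and 2.90. The names of the comparisons give the direction, mutant over WT.

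No count model was refitted. Intervals of 95%, the difference between mutants, Benjamini-Hochberg adjustment and alternatives were computed in Python 3.11.15 with scipy 1.17.1. The code of the difference test was run on simulated normal noise with shared WT noise, the model that the test assumes. Shrinkage was not simulated, so that run does not check the test on shrunken fold changes. Positions come from the Ensembl release 115 annotation of BDGP6.54, which holds 17209 of the gene identifiers, 98.2% of them with the same exon length. The members, the gene lists and the tests were chosen with earlier results of these data known. From each list, up to 6 genes called in either mutant were named, by smallest adjusted p. CS-2, CG8460, Cda9, the markers, Cht3's neighbours and overlapping genes were named beside them. A marker, dys, matched no single gene and was left out.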

Additional observations from a re-analysis of the deposited data

How the results depend on the processing

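Values per library were not used, so leaving out single libraries and a refit with edgeR were not run. No paired analysis was possible because the tables hold comparisons of groups and no values per library. The counts of called chitinase genes, 4 of 7 in each mutant and 0 of 7 between the mutants, stayed within 1.5 times of these values with an adjusted p under 0.01, with fold changes centred on the median of all tested genes, with no filter on low values, with a mean normalized count of at least 50 and with at least a 1.5-fold change; under the last, Cht7 drops out in both mutants. With at least a 1.5-fold change the other chitin pathway genes called in JmjC* numbered 9 (7 higher, 2 lower), in place of 16. The 1.5-fold cut was applied to the authors' shrunken fold changes. Over all genes, the calls of A512P numbered 1609 at an adjusted p under 0.01 and 846 with at least a 1.5-fold change, against 2436; those of JmjC* numbered 1138 with at least a 1.5-fold change, against 3428; and 429 genes in place of 102 differed between the mutants with a correlation of 0.5. In order of level without length correction, Cht6 moved to rank 1, Cht11 to 4, Cht3 to 5 and Cht5 to 6. The causes were not tested beyond the construction of each alternative. Without depth per library, the limits of detection of Cht4, Cht8, Cht9 and Cht12 are unknown.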

Other observations

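The 2 nearest tested genes on each side of Cht3, which lies in the part of 2L near the centromere, were read. Of these 4 genes, 1 was called higher in 1 mutant and 1 lower in both. Over all tested genes, 21.0% were called in either direction in A512P and 28.8% in JmjC*. With 4 genes, the count is a description only. The nearest, cta, a G protein subunit gene 6.62 kb away, was at log2 0.031 ± 0.11 in A512P and -0.011 ± 0.11 in JmjC* in the authors' deposited tables (adjusted p = 0.895 and 0.955). On the same side the vesicle trafficking gene lt, 56.4 kb away, rose by 0.22 ± 0.081 in A512P (adjusted p = 0.0320) and was at 0.073 ± 0.081 in JmjC* (adjusted p = 0.539) in the authors' deposited tables. On the other side Spf45, a splicing factor gene 41.0 kb away, was at log2 0.15 ± 0.090 in A512P and 0.17 ± 0.090 in JmjC*, not called in either of the authors' deposited tables. The non-coding RNA CR43242, 43.1 kb away, was lower in both mutants, at log2 -0.42 ± 0.10 in A512P (adjusted p = 5.37e-04) and -0.59 ± 0.10 in JmjC* (adjusted p = 2.61e-07) in the authors' deposited tables.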
